A study of Mus musculus with 6 samples.

Results

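Egr1, Egr2, Egr3, Nr4a1, Nr4a2, Nr4a3, Nab2, Irf4, Cd69 and Cd5 are genes whose expression follows signals of the antigen receptor in lymphocytes. They were taken by symbol from the feature list of single-cell libraries of mouse pancreatic lymph nodes, and all 10 were found among its 31053 features. The libraries came from 3 mice that carried a floxed gene together with the CD4-Cre transgene (Cre-positive 1 to 3) and from 3 that carried the floxed gene without the transgene (Cre-negative 1 to 3), with 1 library per mouse. Cre is a recombinase that cuts out loxP-flanked DNA, and CD4-Cre acts in T cells of both the CD4 and the CD8 lineage, since both pass a stage that expresses Cd4. All 6 mice carried the floxed gene and none carried Cre without it, so that effects of Cre itself and of the deletion cannot be told apart. The labels gave no strain, sex, age or treatment. Transcript molecules were counted per cell by unique molecular identifiers (UMIs) on the droplet platform of 10x Genomics, and each gene was followed in naive and memory CD4 T cells, naive and memory CD8 T cells, regulatory T cells and B cells.

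Binding of antigen to the receptor of a T or B cell raises calcium and activates the ERK kinases, and both routes end in the nucleus at immediate early genes, which need no new protein to be transcribed. Egr1, Egr2 and Egr3 encode zinc finger transcription factors of this kind, and Nab2 encodes a co-repressor that binds EGR proteins and limits their action. Nr4a1, Nr4a2 and Nr4a3 encode orphan nuclear receptors, and a reporter of Nr4a1 is widely used in mice to mark lymphocytes that have recently met antigen. Irf4 encodes a transcription factor whose amount follows receptor signal strength and which activated T cells and plasma cells require. Cd69 is a surface protein that appears early after activation and holds cells in the node, and Cd5 is a surface protein that dampens receptor signalling and whose level in T cells is set in the thymus by the strength of self recognition.

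The promoters of 7 of the 10 genes were in the RefSeq table used here (GRCm38.p6, 250 bases before to 50 bases after each annotated start), 11 promoters in all. They were searched on both strands for TGACG, the core of the cAMP response element that CREB and ATF factors bind, which reads CGTCA on the other strand. The promoters of Nr4a1, Nr4a2 and Nr4a3 held 4 cores each, and 3 overlapping promoters of Egr2 held the same 2, and the promoters of Nab2, Irf4 and Cd5 held none. Of 32851 promoters in the table, 20.8% held at least 1 core, 5.01% at least 2 and 0.231% at least 4. The sequences of the 3 Nr4a promoters and of the Egr2 promoter are shown because they carry this pattern, from 5′ to 3′ along the strand of the gene, with the cores in capitals.
Nr4a1 promoter, chr15:101266596-101266895, plus strand: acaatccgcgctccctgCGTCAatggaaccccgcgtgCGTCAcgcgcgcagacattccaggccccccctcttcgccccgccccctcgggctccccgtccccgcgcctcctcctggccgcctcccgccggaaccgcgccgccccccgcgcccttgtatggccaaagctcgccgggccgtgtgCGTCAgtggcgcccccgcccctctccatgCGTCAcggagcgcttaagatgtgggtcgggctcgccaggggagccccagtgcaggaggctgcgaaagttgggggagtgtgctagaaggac
Nr4a2 promoter, chr2:57123954-57124253, minus strand: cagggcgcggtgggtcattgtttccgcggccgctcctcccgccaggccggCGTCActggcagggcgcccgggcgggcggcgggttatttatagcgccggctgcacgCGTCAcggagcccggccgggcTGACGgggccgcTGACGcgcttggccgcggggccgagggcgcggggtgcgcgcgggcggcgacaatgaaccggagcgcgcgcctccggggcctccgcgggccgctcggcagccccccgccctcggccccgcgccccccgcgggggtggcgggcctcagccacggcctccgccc
Nr4a3 promoter, chr4:48045055-48045354, plus strand: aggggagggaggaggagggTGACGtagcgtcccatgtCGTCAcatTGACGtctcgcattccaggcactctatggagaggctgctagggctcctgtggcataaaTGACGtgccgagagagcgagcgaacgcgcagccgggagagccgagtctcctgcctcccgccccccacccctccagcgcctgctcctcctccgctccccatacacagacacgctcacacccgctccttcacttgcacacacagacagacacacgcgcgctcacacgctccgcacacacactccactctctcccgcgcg
Egr2 promoter, chr10:67537619-67537918, plus strand: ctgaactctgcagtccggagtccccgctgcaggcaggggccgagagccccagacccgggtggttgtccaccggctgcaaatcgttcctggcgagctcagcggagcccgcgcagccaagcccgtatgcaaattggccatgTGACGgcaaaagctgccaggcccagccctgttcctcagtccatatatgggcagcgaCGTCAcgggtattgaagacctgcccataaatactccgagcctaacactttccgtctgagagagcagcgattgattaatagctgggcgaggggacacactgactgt
A CArG box, the site of serum response factor, was found in 4 of the 5 annotated Egr2 promoters and in 1.63% of all promoters. The full element TGACGTCA, which contains the core on both strands, was in 1.79% of all promoters, the EGR site GCGTGGGCG in 0.612% and the NR4A site AAAGGTCA in 1.51%, and none of these was in a promoter of the members. A match describes the letters of the window and was not tested as a binding site.

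In the GRCm38 annotation (GENCODE M21) the members lie on chromosomes 18 (Egr1), 10 (Egr2 and Nab2), 14 (Egr3), 15 (Nr4a1), 2 (Nr4a2), 4 (Nr4a3), 13 (Irf4), 6 (Cd69) and 19 (Cd5), and all are protein coding. Nab2 (chr10:127660918-127668568, minus strand) overlaps Nemp1 over 1668 bases, the antisense gene Gm16229 over 1646 and Stat6 over 40, all on the other strand. Whether counting used strand is not given in the sources used here, so reads of these genes may be mixed and values of Nab2 are uncertain. The other members overlap no annotated gene.

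The libraries held 47149014 to 61321105 UMIs, and 51777 of 59680 barcodes were kept. Cell classes were gated by UMIs of marker genes, none of them a member: CD4 T cells by Cd3 and Cd4, CD8 T cells by Cd3 and Cd8b1, regulatory T cells by Cd3 and Foxp3, and B cells by a set of B cell markers. Memory cells had 3 or more UMIs in 2 or more of S100a4, Itgb1, Lgals1, Anxa2, Cxcr3, Maf, Il2rb and Ccl5, while naive cells had none of these and at least 1 UMI of a set of naive T cell markers. The gates held 1435 memory CD4, 1686 regulatory, 11072 B, 1464 memory CD8, 2868 naive CD8 and 6487 naive CD4 cells, and their sums per mouse ranged from 1280713 to 12645072 UMIs. Markers outside the gates followed the labels: Trac, Trbc2 and Cd2 summed to 2310 to 3488 counts per 1000000 UMIs (CPM) in the 5 T cell gates and to 128 to 156 CPM in B cells. Between libraries 16 to 39 barcode sequences were shared per pair, and Cre-negative 1 carried red cell transcripts (Hba-a1 and Hbb-bs at 5288 CPM in B cells). Cre-positive 2 carried them in naive CD4 cells (1289 CPM).

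The memory CD4 gate held transcripts of other cell types. Its macrophage markers C1qa, C1qb, Lyz2 and Csf1r summed to 38.8 to 930 CPM over the 6 mice, against 7.95 to 29.5 CPM in naive CD4 cells. Cd74, an antigen presentation gene of B cells and of myeloid cells, averaged 666 CPM there, against 46.5 CPM in naive CD4 cells, while the B cell genes Pax5 (0 to 1.28 CPM) and Bank1 (0 to 2.56 CPM) were near 0. Regulatory markers outside the gate (Il2ra, Ikzf2, Ctla4 and Tnfrsf18) summed to 575 to 784 CPM in memory CD4 cells, 1792 to 2169 CPM in regulatory cells and 101 to 120 CPM in naive CD4 cells. Fold changes of this gate are therefore also given without cells holding a UMI of macrophage, dendritic, NK or red cell markers, which took 19.4% of its cells, and without cells holding an Ikzf2 or Il2ra UMI, which took 42.6%. Both alternatives were chosen after the data were seen. Memory gates also held deeper cells, with a median of 4867 to 7077 UMIs per memory CD4 cell by mouse, against 4253 to 5543 per naive CD4 cell. The gap was wider for CD8, with 6688.5 to 8960 UMIs per memory CD8 cell, against 4829.5 to 6051 per naive CD8 cell, without overlap.

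**Figure D1:**
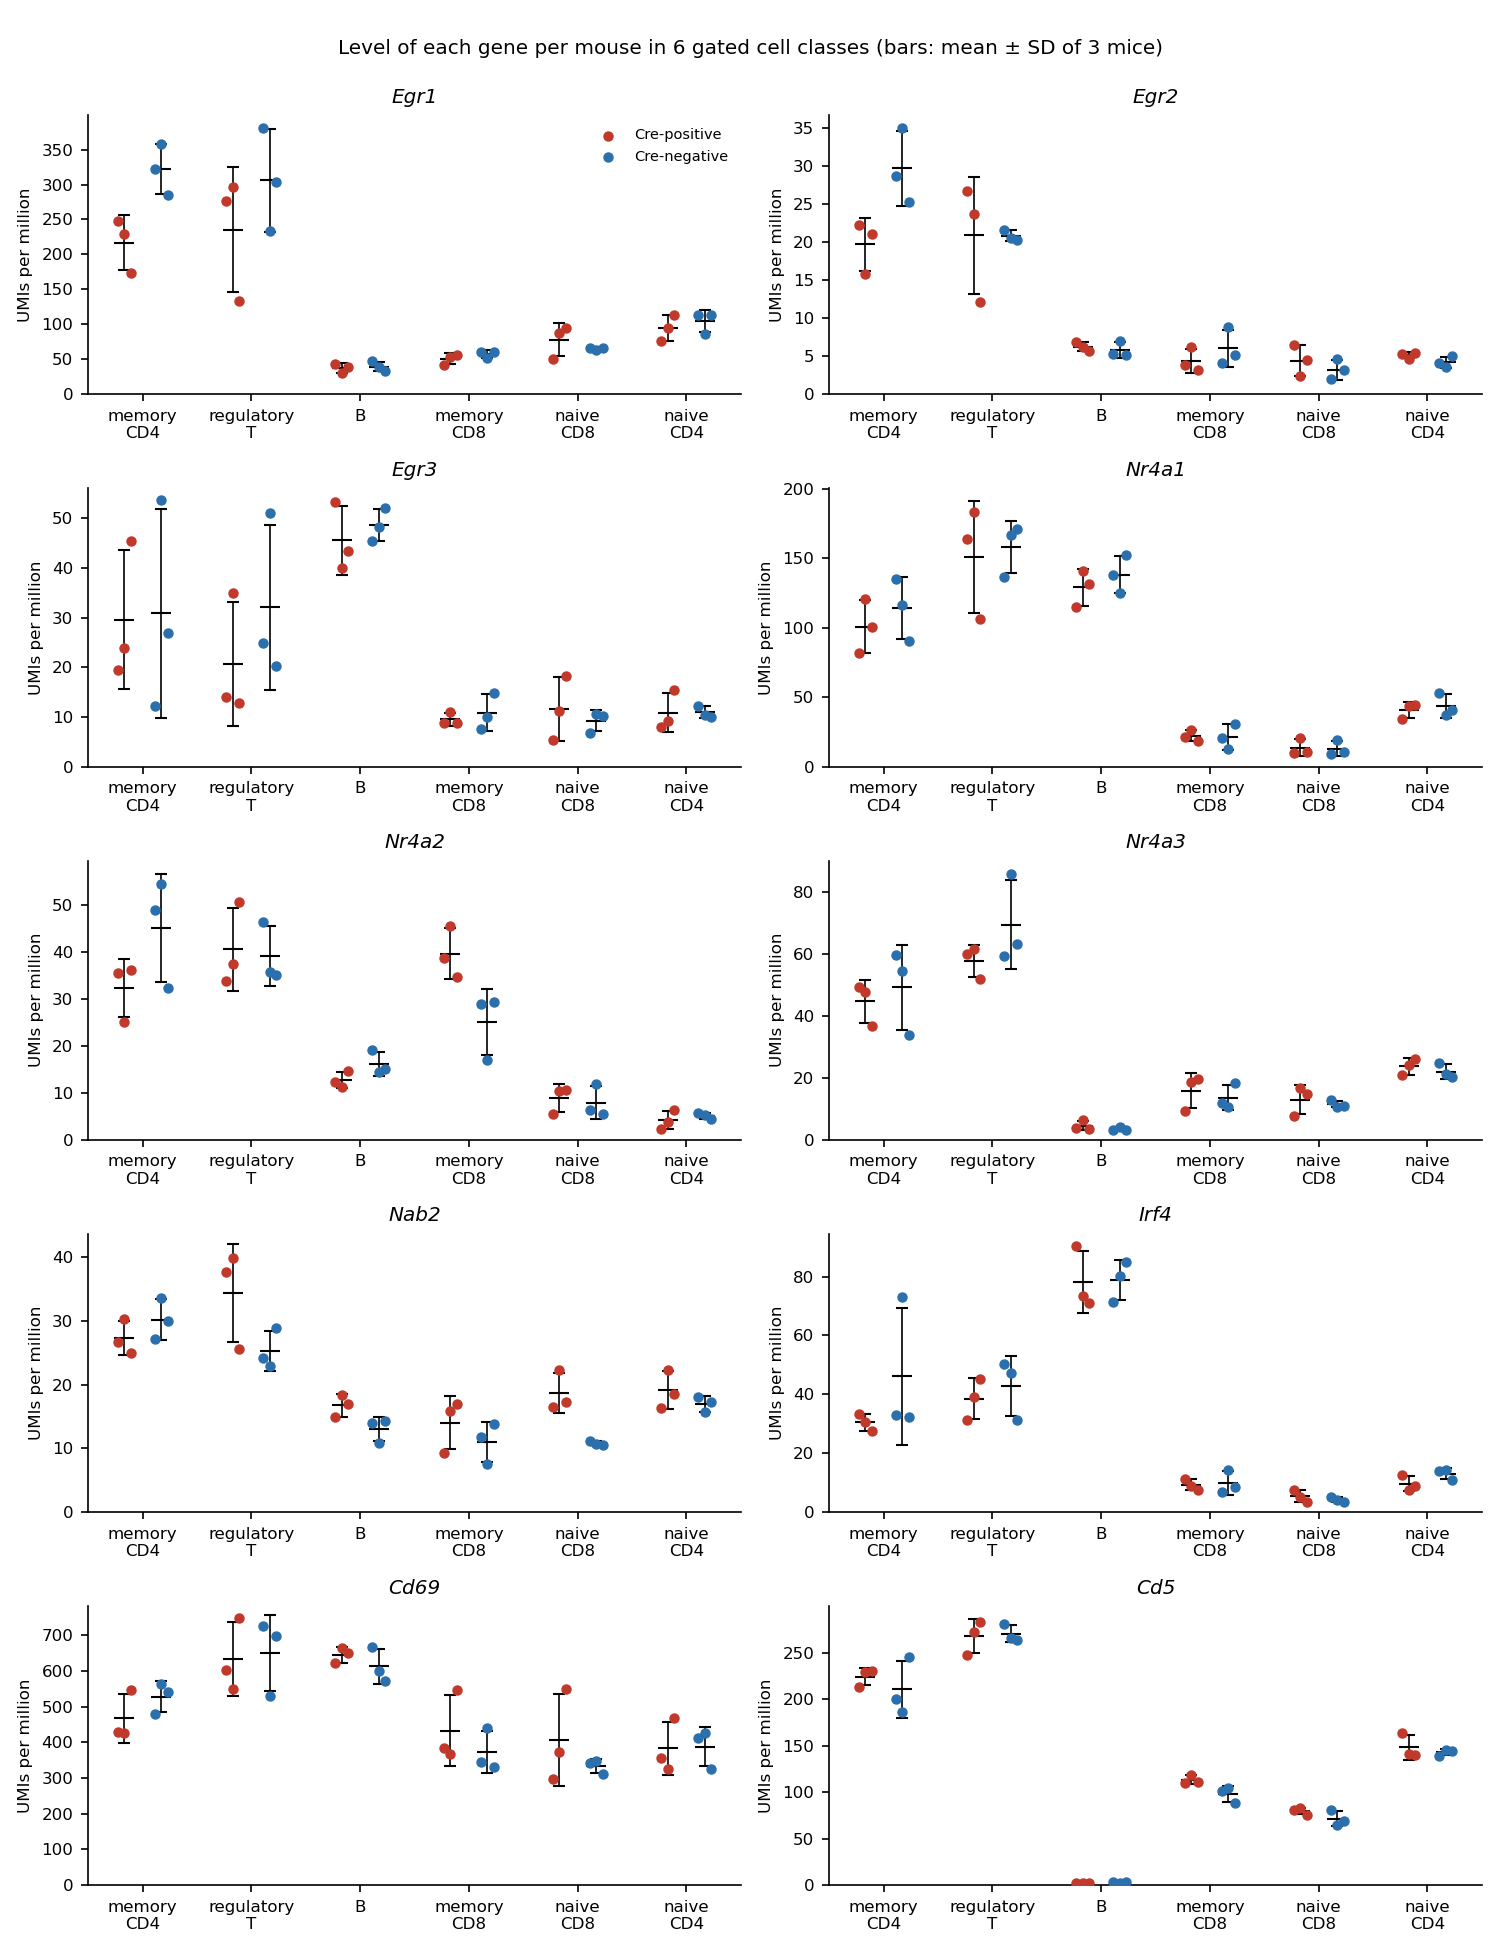
Level of each of the 10 genes in CPM (vertical axes, from 0) in 6 gated cell classes, with 1 point per mouse (red Cre-positive, blue Cre-negative) and bars for the mean ± SD of 3 mice. Egr1 lies at 172.8 CPM or more in every memory CD4 sum and at 113.5 CPM or less in every naive CD4 sum, and Cd5 is near 0 in B cells.

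Most of the genes were high in memory CD4 and regulatory T cells and low in both CD8 gates. Nr4a1, Egr3, Irf4 and Cd69 were high in B cells too, where Egr1, Nr4a3 and Cd5 were at their lowest. Nr4a2 was high in memory CD8 cells as well, at levels overlapping those of memory CD4 and regulatory cells.

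Egr1, the immediate early factor of the family, averaged 271 ± 82.9 CPM in regulatory cells and 269 ± 66.8 CPM in memory CD4 cells (mean ± SD, n = 6 mice, as for all levels over gates). These levels overlapped, and 4 of 6 mice were higher in regulatory cells. Egr1 was lower in the other gates, in the order naive CD4 (99.6 ± 16.1 CPM), naive CD8 (71.2 ± 16.5), memory CD8 (54.0 ± 7.24) and B cells (38.3 ± 6.20), with each of these gates overlapping the next. Memory CD4 and naive CD4 cells did not overlap: the lowest, median and highest mouse stood at 173, 267 and 358 CPM in memory CD4 cells and at 76.5, 104 and 114 CPM in naive CD4 cells.

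Egr2, which together with Egr3 restrains activated T cells in mice, was found mainly in memory CD4 cells (24.7 ± 6.67 CPM) and regulatory cells (20.9 ± 4.91 CPM). The lowest, median and highest mouse had 15.8, 23.8 and 35.1 CPM in memory CD4 cells. The other 4 gates lay together between 1.94 and 8.78 CPM in single mice, below every memory CD4 and regulatory value. Egr3 followed another order. It was highest in B cells (47.1 ± 5.10 CPM), and its spread in memory CD4 cells (12.2 to 53.7 CPM) and regulatory cells (12.8 to 51.1 CPM) was wide enough to overlap all other gates. Naive CD4 (10.9 ± 2.60 CPM), naive CD8 (10.4 ± 4.48) and memory CD8 cells (10.2 ± 2.57) could not be told apart for Egr3. Cre-negative 2 was the highest mouse for Egr3 in both memory CD4 (53.7 CPM) and regulatory cells (51.1 CPM).

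Among the nuclear receptors, Nr4a1 stood at 155 ± 28.4 CPM in regulatory cells, 134 ± 13 in B cells and 107 ± 20.1 in memory CD4 cells, with overlap between neighbours. It was lower without overlap in naive CD4 cells (42.3 ± 6.56 CPM) and lower again in memory CD8 (21.7 ± 6.39) and naive CD8 cells (13.4 ± 5.02), which overlapped each other. Nr4a2 had 39.9 ± 6.96 CPM in regulatory, 38.8 ± 10.9 in memory CD4 and 32.4 ± 9.79 in memory CD8 cells, all overlapping. The lowest, median and highest mouse for Nr4a2 in memory CD8 cells had 16.9, 32.0 and 45.6 CPM, against 5.36, 8.38 and 11.8 CPM in naive CD8 cells. No naive CD8 mouse reached the lowest memory CD8 mouse. In naive CD4 cells Nr4a2 was at 4.61 ± 1.41 CPM and in B cells at 14.5 ± 2.72 CPM. Nr4a3 stood at 63.7 ± 11.6 CPM in regulatory, 47.0 ± 9.99 in memory CD4, 22.8 ± 2.40 in naive CD4, 14.7 ± 4.65 in memory CD8, 12.2 ± 3.19 in naive CD8 and 3.93 ± 1.19 CPM in B cells. The regulatory and memory CD4 levels overlapped, as did those of the 2 CD8 gates, and the other steps did not.

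Nab2, the EGR co-repressor, was at 29.8 ± 7.19 CPM in regulatory and 28.8 ± 3.11 CPM in memory CD4 cells, which overlapped. The other gates lay between 12.5 ± 3.69 CPM in memory CD8 and 18.1 ± 2.34 CPM in naive CD4 cells and overlapped with their neighbours. Irf4, the factor that activated T cells and plasma cells require, was highest in B cells (78.6 ± 7.94 CPM), without overlap with regulatory cells (40.8 ± 8.21 CPM). In memory CD4 cells (38.3 ± 17.2 CPM) Cre-negative 2 had 73.1 CPM, within the B cell range of 71.0 to 90.3 CPM. The other 5 mice had 27.6 to 33.4 CPM of Irf4 in memory CD4 cells. The B cell genes Pax5 and Bank1 stood at no more than 1.28 and 2.56 CPM in any memory CD4 sum, against means of 296 and 608 CPM in B cells. Cells with Cd79a, Cd79b or Ms4a1 were left out of this gate, so low values of Pax5 and Bank1 were partly set by it. The B cell list, most of which was Cd74, was highest in Cre-negative 2 (1123 CPM). The dendritic list, most of which was Ccr7, was also highest there (381 CPM), and the macrophage list lowest (38.8 CPM). What part other cells had in the Irf4 value of this mouse was not tested. Naive CD4 cells had 11.4 ± 2.68 CPM of Irf4, memory CD8 cells 9.65 ± 2.83 and naive CD8 cells 4.89 ± 1.5, with overlap between neighbours.

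Cd69, the early surface marker, averaged 642 ± 93.9 CPM in regulatory and 629 ± 38.4 in B cells, 498 ± 60.9 in memory CD4, 402 ± 80.2 in memory CD8, 386 ± 58.6 in naive CD4 and 370 ± 91.7 CPM in naive CD8 cells, and the last 4 overlapped each other. Cd5, the brake on receptor signals, was the 1 member for which no gate overlapped with the next. It stood at 269 ± 13 CPM in regulatory, 217 ± 21.6 in memory CD4, 145 ± 9.27 in naive CD4, 105 ± 10.3 in memory CD8, 75.5 ± 7.19 in naive CD8 and 2.33 ± 0.614 CPM in B cells. The order held in each of the 6 mice.

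Memory CD4 cells expressed all 10 genes more strongly than naive CD4 cells of the same mice. Each of the 10 passed edgeR's quasi-likelihood test with Benjamini-Hochberg adjustment over 10119 genes, with the mouse as a block, where 45.4% of genes passed, 24.5% as higher and 20.9% as lower. The gates did not overlap for 8 of the 10, the exceptions being Egr3 and Cd69, against 23.6% of all genes. The median log2 fold change of the members was 1.20, against 0.00 for all genes tested. Nr4a2 had the largest fold (log2 2.85 ± 0.15 SE, adjusted p = 1.47e-21), followed by Egr2 (2.18 ± 0.17, adjusted p = 8.75e-15) and Irf4 (1.54 ± 0.13, adjusted p = 3.88e-14). Egr3 (1.24 ± 0.24), Egr1 (1.23 ± 0.18) and Nr4a1 (1.16 ± 0.07) came next. Nr4a3 (0.84 ± 0.10), Nab2 (0.47 ± 0.11), Cd5 (0.40 ± 0.06) and Cd69 (0.19 ± 0.05, adjusted p = 0.00339) differed less. Scaling by library totals in place of TMM factors shifted the median of all genes by 0.18 and left the 10 calls in place.

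Without cells holding markers of other cell types all 10 passed, with Nr4a2 at 2.79, Egr2 at 2.09 and Egr1 at 1.12. Without cells holding an Ikzf2 or Il2ra UMI 8 members passed, with Nr4a2 at 2.53, Egr2 at 2.27 and Egr1 at 1.20. Nab2 (0.15, adjusted p = 0.531) and Cd69 (0.22, adjusted p = 0.0823) no longer passed there. Cd69 did not pass either when Cre-negative 3 was left out (0.11, adjusted p = 0.0606), with the memory gate at 2 panel UMIs (0.08, adjusted p = 0.0566) or with no mouse block (0.18, adjusted p = 0.246).

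**Figure D2:**
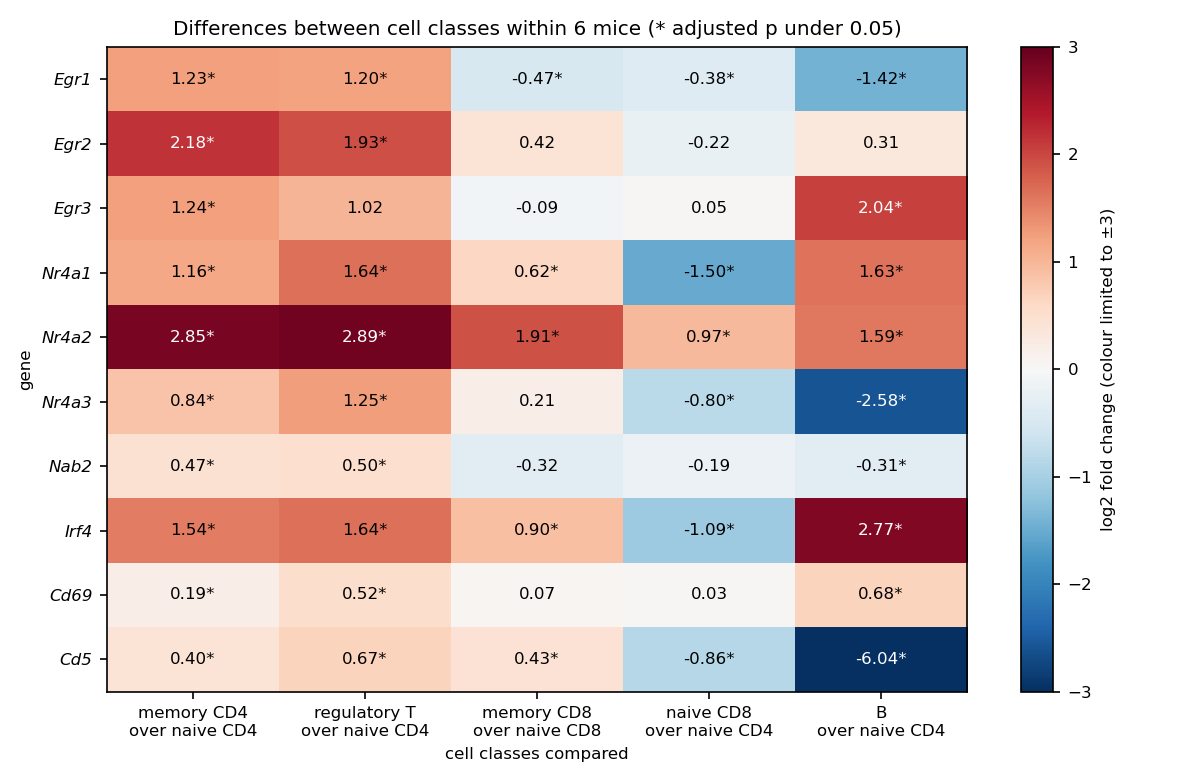
Log2 fold changes of the 10 genes (rows) between gated cell classes (columns, first class over second), as colour and printed value, from edgeR with the mouse as a block. All 10 genes are positive for memory CD4 over naive CD4 and for regulatory over naive CD4 cells, while signs are mixed in the CD8 and B cell columns.

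Regulatory cells held more of 9 of the 10 genes than naive CD4 cells did, where 45.8% of 9828 genes passed, 23.5% as higher and 22.2% as lower. The gates did not overlap for these 9, against 26.2% of all genes. Nr4a2 (2.89 ± 0.14, adjusted p = 1.96e-26), Egr2 (1.93 ± 0.18) and Nr4a1 (1.64 ± 0.17) had the largest folds on the log2 scale together with Irf4 (1.64 ± 0.13). Nr4a3 (1.25 ± 0.10) and Egr1 (1.20 ± 0.23, adjusted p = 0.00835) followed, then Cd5 (0.67 ± 0.05), Cd69 (0.52 ± 0.10) and Nab2 (0.50 ± 0.12). Egr3, with its wide spread between mice, had a value of 1.02 ± 0.36 and did not pass (adjusted p = 0.0663). It passed under 8 alternatives, such as DESeq2 (0.96, adjusted p = 0.000786) and the fit without Cre-positive 3 (1.30, adjusted p = 1.12e-07). Library totals shifted the median of all genes by 0.22 in this comparison.

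In CD8 T cells the members did not move together. Memory CD8 cells had more Nr4a2 (1.91 ± 0.18, adjusted p = 2.45e-09), Irf4 (0.90 ± 0.22, adjusted p = 0.00167), Nr4a1 (0.62 ± 0.18, adjusted p = 0.0149) and Cd5 (0.43 ± 0.06, adjusted p = 3.90e-07) and less Egr1 (−0.47 ± 0.08, adjusted p = 8.82e-06) than naive CD8 cells. These are 4 higher and 1 lower of 10, where 19.8% of 8961 genes passed, 10.5% as higher and 9.33% as lower. Nr4a2 and Cd5 did not overlap between the gates, against 6% of all genes. Egr2 (0.42 ± 0.30), Nr4a3 (0.21 ± 0.16), Cd69 (0.07 ± 0.05), Egr3 (−0.09 ± 0.19) and Nab2 (−0.32 ± 0.16) did not pass. The Nr4a1 call was lost without Cre-positive 1 (0.55, adjusted p = 0.0550) and without Cre-positive 3 (0.60, adjusted p = 0.0523). With the memory gate at 2 panel UMIs the Nr4a1 fold fell to 0.37 and did not pass by edgeR (adjusted p = 0.331). DESeq2 called Nr4a2, Cd5 and Egr1 but neither Nr4a1 (adjusted p = 0.121) nor Irf4 (adjusted p = 0.109). Macrophage markers in this gate summed to 8.78 to 66.2 CPM in 5 mice and to 428 CPM in Cre-negative 1, and the same 5 genes passed without cells holding markers of other cell types.

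Naive CD8 cells differed from naive CD4 cells by less Nr4a1 (−1.503 ± 0.13), Irf4 (−1.09 ± 0.18), Cd5 (−0.86 ± 0.05), Nr4a3 (−0.80 ± 0.12) and Egr1 (−0.38 ± 0.07) and by more Nr4a2 (0.97 ± 0.19, adjusted p = 4.02e-06). Thus 5 members passed as lower and 1 as higher, where 31.7% of 9654 genes passed, 15.6% as lower and 16.2% as higher. Nr4a1, Nr4a3, Irf4 and Cd5 did not overlap between the gates, against 12.9% of all genes. Egr2, Egr3, Nab2 and Cd69 did not pass, with values between −0.22 and 0.05. Nr4a2 was the only member that passed as higher in naive CD8, and its counts there were low, at 5.36 to 11.8 CPM against 2.31 to 6.26 CPM in naive CD4 cells.

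B cells, in which the receptor is surface immunoglobulin, had more Irf4 (2.77 ± 0.08), Egr3 (2.04 ± 0.11), Nr4a1 (1.63 ± 0.05), Nr4a2 (1.59 ± 0.13) and Cd69 (0.68 ± 0.09) than naive CD4 cells. They had less Cd5 (−6.04 ± 0.07), Nr4a3 (−2.58 ± 0.12), Egr1 (−1.42 ± 0.14) and Nab2 (−0.31 ± 0.09). B and naive CD4 cells differ in most genes, and 37.3% of 11039 genes passed as higher and 36.1% as lower, so that the 9 of 10 members that passed stand beside 73.4% of all genes. The gates did not overlap for 8 members, against 48.3% of all genes. Egr2 had a value of 0.31 ± 0.15 and did not pass (adjusted p = 0.0630), though it did under 7 alternatives, such as library totals (0.35, adjusted p = 0.0375). The 3 members of each family thus lay apart in B cells: Egr3 was higher and Egr1 lower, and Nr4a1 and Nr4a2 were higher and Nr4a3 lower.

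No member passed the test between Cre-positive and Cre-negative mice in any of the 6 gates. The share of all genes that passed was 0% in memory CD4 (of 8803), regulatory (8375), B (10598) and naive CD8 cells (8642), 0.0822% in memory CD8 (8513) and 0.0512% in naive CD4 cells (9773). DESeq2 called no member in any gate either. At an unadjusted p under 0.05 edgeR listed 3 members in memory CD4 cells, 1 in regulatory, 2 in B, 1 in memory CD8, 1 in naive CD8 and 1 in naive CD4 cells. The shares of all genes under it were 5.4% in memory CD4, 4.6% in regulatory, 4.32% in B, 6.43% in memory CD8, 5.53% in naive CD8 and 5.87% in naive CD4 cells. With 3 mice in each group, a p that misses the threshold does not show that the groups were alike.

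**Figure D3:**
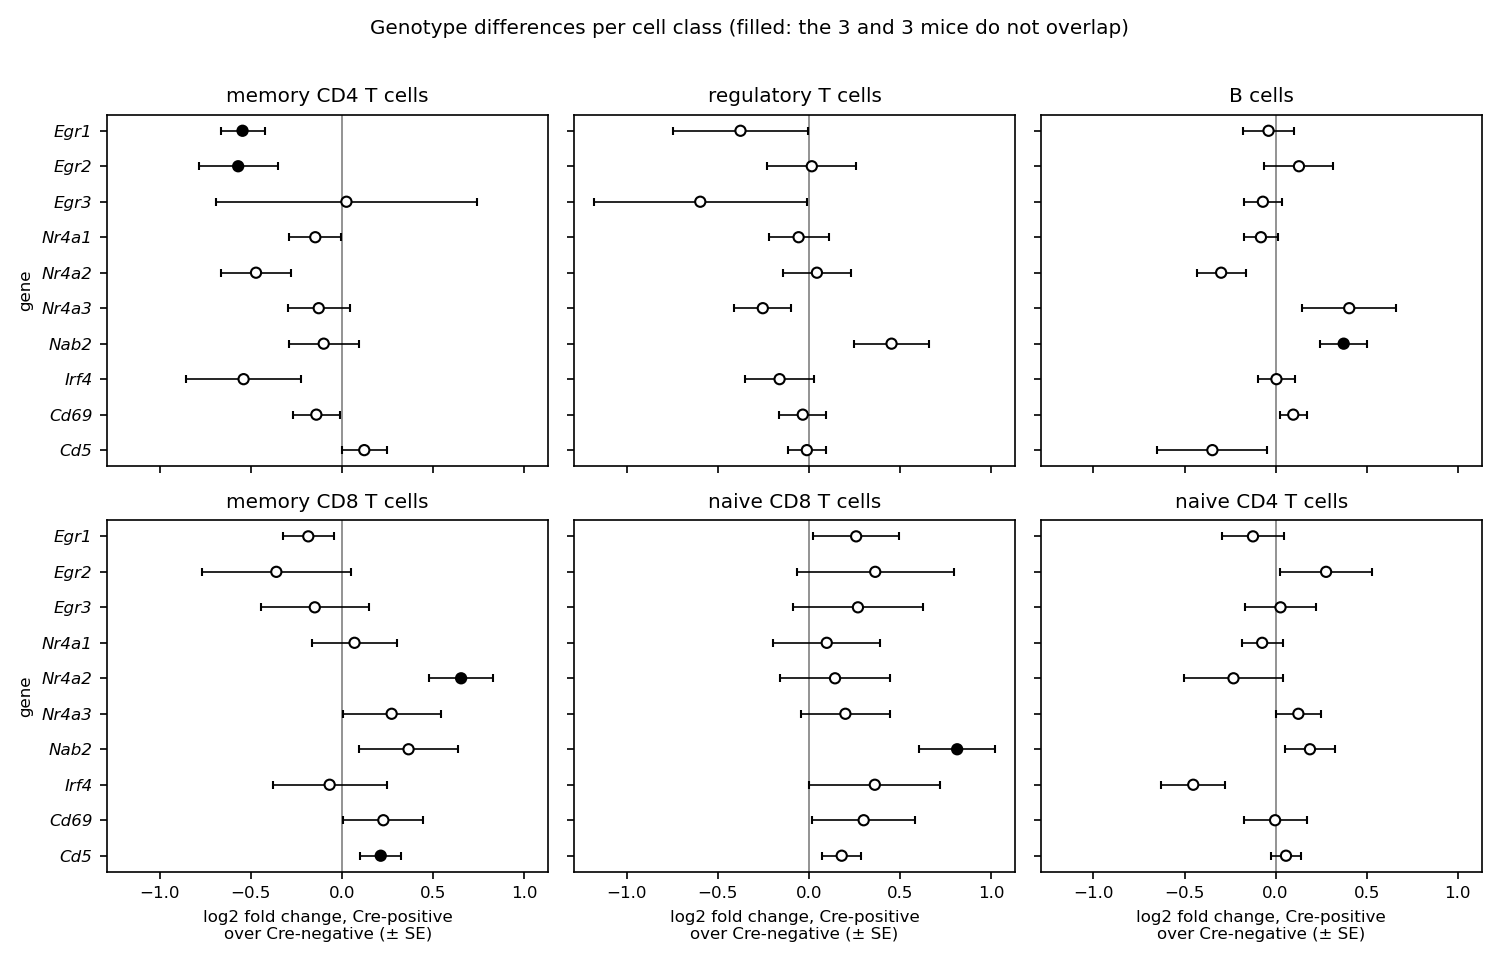
Log2 fold change of each gene (rows), Cre-positive over Cre-negative, with bars for ± SE, in 6 gated cell classes; filled points mark genes whose 3 Cre-positive and 3 Cre-negative mice do not overlap. Filled points are Egr1 and Egr2 in memory CD4, Nab2 in B and naive CD8, and Nr4a2 and Cd5 in memory CD8 cells, and none of the values passes the test.

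In memory CD4 cells Egr1 had 248, 229.6 and 173 CPM in Cre-positive mice 1 to 3, against 322, 358 and 286 CPM in Cre-negative mice 1 to 3. Every Cre-positive mouse lay below every Cre-negative mouse. The log2 fold change was −0.55 ± 0.12 (edgeR unadjusted p = 8.47e-05, adjusted p = 0.247), and it stayed between −0.63 and −0.44 when any 1 mouse was left out. It was −0.53 without cells holding markers of other cell types (adjusted p = 0.226) and −0.44 without cells holding an Ikzf2 or Il2ra UMI (adjusted p = 0.998). It passed with no filter on low counts (−0.53, adjusted p = 0.0096) and did not pass with DESeq2.

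Egr2 in memory CD4 cells had 22.3, 15.8 and 21.1 CPM in Cre-positive mice, against 28.7, 35.1 and 25.3 CPM in Cre-negative mice, again without overlap (−0.57 ± 0.22, adjusted p = 0.877). Nr4a2 had 35.6, 25.1 and 36.3 CPM in Cre-positive mice, against 49.0, 54.5 and 32.3 CPM in Cre-negative mice, and Cre-negative 3 lay within the Cre-positive range (−0.47 ± 0.19, adjusted p = 0.879). The fold of Nr4a2 was −0.15 with cells of at most 5% mitochondrial UMIs. Without cells holding markers of other cell types Egr2 was −0.78 and Nr4a2 −0.49, and without cells holding an Ikzf2 or Il2ra UMI they were −0.60 and −0.42, and none passed. The other 7 members had values between −0.54 (Irf4) and 0.12 (Cd5), and 8 of the 10 were below 0, with a median of −0.14 against 0.00 for all genes. The groups did not overlap for 2 of 10 members, against 10.6% of all genes. Summed, the 6 Egr and Nr4a genes stood at 456, 463 and 413 CPM in Cre-positive memory CD4 cells, against 607, 672 and 494 CPM in Cre-negative ones. Macrophage markers in the same sums stood at 219, 929.7 and 584 CPM in Cre-positive mice and at 272, 38.8 and 240.3 CPM in Cre-negative mice. The groups overlapped for these markers. The naive markers Satb1, Igfbp4, S1pr1 and Dapl1 separated the same mice without overlap in this gate. They stood at 781.4, 919.1 and 830.3 CPM in Cre-positive mice, against 985.3, 936.8 and 992.7 CPM in Cre-negative mice. The part of the naive marker difference in the Egr1 and Egr2 values was not tested.

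Regulatory cells showed no member without overlap, against 9.5% of all genes. Egr1 ranged widely there, with 277, 297 and 133 CPM in Cre-positive mice, against 382, 234 and 303 CPM in Cre-negative mice. Cre-positive 3 was the lowest mouse for Egr1, Egr2 and Nr4a1 in this gate, and the groups overlapped for each. The 3 smallest p values belonged to Nab2 (0.45 ± 0.21), Nr4a3 (−0.25 ± 0.16) and Egr3 (−0.60 ± 0.58), each with an adjusted p of 0.992, and the other members lay between −0.38 and 0.04. The Egr3 value ran from −1.23 without Cre-positive 2 to −0.11 without Cre-negative 2. In B cells, which do not express Cd4, Nab2 had 14.9, 18.4 and 16.9 CPM in Cre-positive mice, against 14.0, 10.9 and 14.3 CPM in Cre-negative mice (0.37 ± 0.13, adjusted p = 1.00). It was the 1 member without overlap there, against 9.45% of all genes. Nr4a2 (−0.30 ± 0.13) and Nr4a3 (0.40 ± 0.26) had the next smallest p, and the value of Nr4a2 turned to 0.38 with at most 5% mitochondrial UMIs. The other members lay between −0.35 and 0.13.

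Memory CD8 cells had more Nr4a2 in each Cre-positive mouse, at 38.7, 45.6 and 34.7 CPM, than in any Cre-negative mouse, at 28.9, 16.9 and 29.3 CPM. The fold change was 0.65 ± 0.18 (adjusted p = 0.255), from 0.47 to 0.78 with any 1 mouse left out. Without cells holding markers of other cell types it was 0.88 and passed (adjusted p = 0.0290). Cd5 was higher in Cre-positive memory CD8 cells without overlap as well, at 110.1, 119 and 111 CPM, against 101, 104 and 88.4 CPM in Cre-negative ones (0.21 ± 0.11, adjusted p = 0.777). These were 2 of 10 members, against 10.6% of all genes. Other sums separated the same mice without overlap in this gate. The B cell list, most of which was Cd74, stood at 214, 105 and 283 CPM in Cre-positive mice, against 50.6, 37.0 and 68.3 CPM in Cre-negative mice. The regulatory markers stood at 191, 206 and 194 CPM in Cre-positive mice, against 163, 162 and 174 CPM in Cre-negative mice. The naive markers Satb1, Igfbp4, S1pr1 and Dapl1 stood at 1247, 1229 and 1197 CPM in Cre-positive mice, against 1480.0, 1289 and 1387 CPM in Cre-negative mice. Serum response and dissociation genes, which handling of cells can also raise, stood at 8067, 8171 and 8633 CPM in Cre-positive mice. They stood at 7382, 7402 and 7653 CPM in Cre-negative mice. Of 21 such genes tested, 17 were above 0 and none passed. The part of these sums in the Nr4a2 and Cd5 values was not tested. Nab2 stood at 0.37 ± 0.27 (adjusted p = 0.849), and the other members between −0.36 and 0.27.

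In naive CD8 cells Nab2 had 16.5, 22.3 and 17.3 CPM in Cre-positive mice, against 11.2, 10.7 and 10.6 CPM in Cre-negative mice. The Cre-negative mice lay close together and below all Cre-positive mice (0.81 ± 0.21, unadjusted p = 2.88e-04 and adjusted p = 0.414 by edgeR). Nab2 was the 1 member without overlap, against 10.3% of all genes. Cd5 (0.18 ± 0.11) and Egr1 (0.26 ± 0.24) had the next smallest p. All 10 members were above 0 in this gate, with a median of 0.26, against 0.00 for all genes. The serum response and dissociation genes, such as Hspe1 (0.27 ± 0.09) and Dnajb1 (0.30 ± 0.11), were above 0 in 17 of 21 cases in the same sums, and none passed. The naive markers Satb1, Igfbp4, S1pr1 and Dapl1 separated the genotypes without overlap in naive CD8 cells too. They stood at 1512, 1531 and 1295 CPM in Cre-positive mice, against 1707, 1684 and 1552 CPM in Cre-negative mice. The part of the naive marker difference in the Nab2 and other member values was not tested. In naive CD4 cells no member was without overlap, against 10.3% of all genes. Irf4 (−0.45 ± 0.18, adjusted p = 0.733), Nab2 (0.19 ± 0.14) and Egr2 (0.28 ± 0.25) had the smallest p, and the other members lay between −0.23 and 0.12.

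Whether the genotype difference itself differed between classes was tested as an interaction over the 12 sums of a pair of gates. No member passed, nor did DESeq2 call one, where 0.0791% of genes passed for memory against naive CD4, 0.0558% for memory against naive CD8 and 0.0407% for regulatory against naive CD4 cells. The member with the smallest p was Egr2 for memory against naive CD4 (−0.84 ± 0.33, adjusted p = 0.798), Egr1 for memory against naive CD8 (−0.47 ± 0.16, adjusted p = 0.658) and Nr4a3 for regulatory against naive CD4 cells (−0.37 ± 0.19, adjusted p = 1.00). At an unadjusted p under 0.05 there were 1, 1 and 0 members in these comparisons in the same order, where 5.4%, 5.07% and 4.56% of all genes fell under it.

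A sum over a gate cannot tell a few cells with much transcript from many cells with little. Cells were therefore also thinned to 2000 UMIs each and scored by how many of the 6 Egr and Nr4a genes had a UMI. Cells with 3 or more made up 4.97% ± 2.04 of regulatory and 4.27% ± 1.94 of memory CD4 cells, and 0.819% ± 0.135 of B, 0.825% ± 0.654 of memory CD8, 0.401% ± 0.480 of naive CD8 and 0.748% ± 0.251 of naive CD4 cells (mean ± SD, n = 6 mice). Every regulatory value (1.92% or more) lay above every value of the B, CD8 and naive CD4 gates (1.78% or less), and so did every memory CD4 value but that of Cre-positive 2 (1.61%). Between 52.6% and 66.8% of regulatory cells had none of the 6 genes at this depth. Cells with 3 or more held 16.1% to 49.1% of all UMIs of the 6 genes in regulatory cells and 15.3% to 41.7% in memory CD4 cells. The lowest values, in Cre-negative 1 and Cre-positive 2 in this order, each came from 5 cells.

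**Figure D4:**
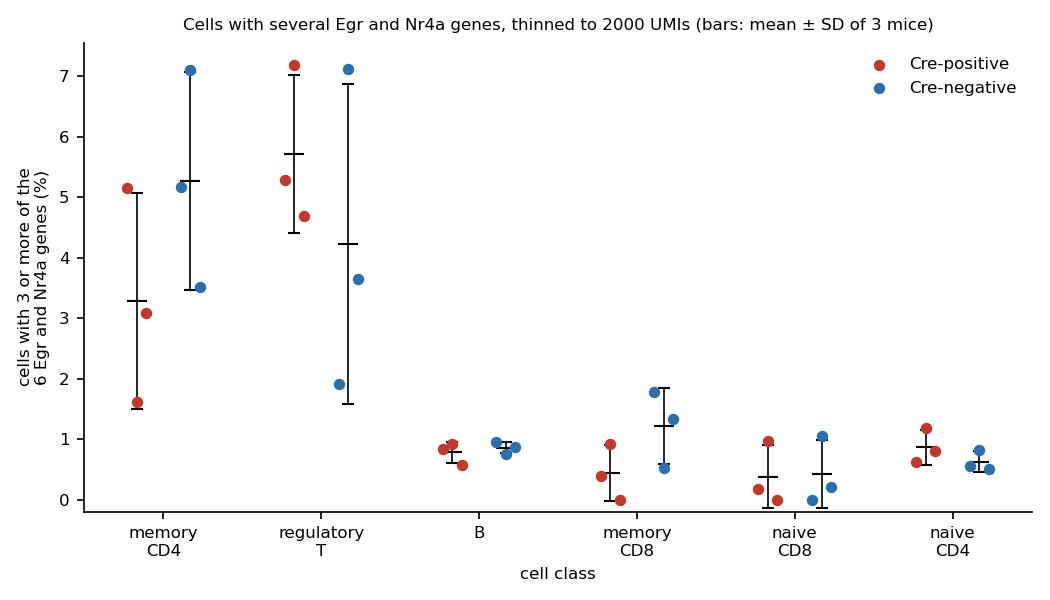
Share of cells, in percent, with UMIs of 3 or more of Egr1, Egr2, Egr3, Nr4a1, Nr4a2 and Nr4a3 after thinning to 2000 UMIs (vertical axis) in 6 gated cell classes, with 1 point per mouse (red Cre-positive, blue Cre-negative) and bars for the mean ± SD of 3 mice. Memory CD4 and regulatory cells reach 7.11% and 7.19%, and the other gates stay at 1.78% or less.

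Shares were also taken for single genes. Egr1 was found in 15.6%, 24.8% and 27.4% of regulatory cells in the lowest, median and highest mouse, against 8.95%, 14.0% and 16.5% of naive CD4 cells and 4.08%, 4.58% and 5.15% of B cells. Nr4a1 was found in 18.3%, 20.6% and 22.8% of B cells and in 14.4%, 20% and 23.9% of regulatory cells, against 5.27%, 6.43% and 7.82% of naive CD4 cells. The B cell gate was thus low for Egr1 and high for Nr4a1 at the same depth. Cd69 was found in 58.5% to 64.3% of B cells and 51.6% to 59.4% of regulatory cells.

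By genotype, cells with 3 or more of the 6 genes made up 5.16%, 1.61% and 3.08% of memory CD4 cells in Cre-positive mice, against 5.17%, 7.11% and 3.52% in Cre-negative mice. These shares came from few cells, 15, 5 and 6 in Cre-positive mice and 12, 14 and 7 in Cre-negative mice. Thinning was random and was not repeated at the same depth. The groups overlapped, and the difference of −1.99 percentage points did not pass the two-sided exact permutation test (p = 0.2, where 3 mice against 3 cannot give less than 0.1). It was −0.301 points with cells thinned to 1000 UMIs. In regulatory cells the shares were 5.28%, 7.19% and 4.69% in Cre-positive mice, against 1.92%, 7.11% and 3.65% in Cre-negative mice, which overlapped (exact permutation p = 0.4). They came from 16, 22 and 12 cells in Cre-positive mice and 5, 17 and 10 cells in Cre-negative mice. The difference there was 1.49 points, and 0.045 points at 1000 UMIs. The means were 0.779% in Cre-positive and 0.859% in Cre-negative B cells, 0.435% and 1.22% in memory CD8, 0.381% and 0.420% in naive CD8, and 0.868% and 0.629% in naive CD4 cells, in the same order of groups, with exact permutation p values from 0.2 to 0.8. Cre-positive 3 had 0 of 239 memory CD8 cells, which allows a share of up to 1.26%, and 0 of 385 naive CD8 cells, which allows up to 0.779%. Cre-negative 1 had 0 of 328 naive CD8 cells, which allows up to 0.915%. Before thinning, memory CD4 cells averaged 14.4% in Cre-positive mice, against 16.9% in Cre-negative mice.

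With 2 or more of the 6 genes in place of 3, the shares in memory CD4 cells were 10.3%, 11.6% and 9.74% in Cre-positive mice, against 16.4%, 16.2% and 13.1% in Cre-negative mice. No Cre-positive mouse reached the lowest Cre-negative mouse, and the exact permutation p of 0.1 is the smallest that this design allows. At 1000 UMIs the groups overlapped, at 7.53%, 7.33% and 7.18% in Cre-positive mice, against 11.0%, 8.63% and 6.5% in Cre-negative mice, of which Cre-negative 3 was the lowest of all 6. Thinning left out 5 cells of each group in this gate. As a measure of transcripts from outside the cell, Cd5 was found in 0.166% to 0.642% of B cells at 2000 UMIs, against 33.6% to 43.0% of regulatory cells, at median depths before thinning of 3876 to 5152 UMIs in B and 3851 to 5084 UMIs in regulatory cells. Some B cells are known to express Cd5. Cells with a Cd3 UMI were left out of the B cell gate, so the Cd5 share there can understate transcripts from outside the cell.

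Within a gate the genes tended to be found in the same cells, given here as a description over the cells of all 6 mice at 2000 UMIs. Nr4a1 was found in 35.1% of 388 regulatory cells with Egr1, against 15.4% of 1251 without it. In memory CD4 cells the shares were 29.1% of 316 cells with Egr1, against 10.9% of 1109 without it. In B cells they were 34.1% of 487 with Egr1, against 19.7% of 10428 without it. Egr3 was found in 28.3% of 60 regulatory cells with Egr2, against 2.79% of 1579 without it. Cd69 went with Egr1 more weakly, at 60.3% of regulatory cells with Egr1 and 53.6% without, and 63.0% and 44.3% in memory CD4 cells. Nab2 was found in 8.23% of memory CD4 cells with Egr1 and 4.24% without, and in 6.19% and 5.99% of regulatory cells. Cd5 was found in 28.0% of naive CD4 cells with Egr1 and 21.9% without, and in 38.9% and 40.1% of regulatory cells.

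Other genes of antigen response gave the setting for these differences. Of 35 antigen-induced genes, such as cytokines, costimulatory receptors and feedback inhibitors, 33 were tested between memory and naive CD4 cells, of which 24 passed as higher and 7 as lower, with a median of 1.10, where 24.5% of all genes passed as higher and 20.9% as lower. Ctla4, an inhibitory receptor (3.41 ± 0.07), Icos, a costimulatory receptor (2.34 ± 0.08), and Pdcd1, an inhibitory receptor (4.74 ± 0.19), were higher in memory CD4 cells, and Dusp10, a phosphatase of MAP kinases (−1.39 ± 0.05), was lower. Between regulatory and naive CD4 cells 24 of 31 were higher and 6 lower (all genes 23.5% and 22.2%), such as Il2ra, a chain of a cytokine receptor (5.99 ± 0.11), and Il2ra, Ctla4 and Tnfrsf18 of this list also served above as markers of regulatory cells. Between memory and naive CD8 cells 18 of 31 were higher and 4 lower (all genes 10.5% and 9.33%), such as the inhibitory receptor Lag3 (5.04 ± 0.30) and the transcription factor Bhlhe40 (3.14 ± 0.19). Of the kinases and adaptors of receptor signalling, 10 of 25 passed as higher and 6 as lower in memory CD4, 6 of 22 as higher and 10 as lower in regulatory and 6 of 22 as higher and 6 as lower in memory CD8 cells, beside the same shares of all genes, with medians of −0.02, −0.11 and −0.02.

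Genes of the serum response and of cell dissociation are immediate early and heat shock genes that handling of cells can also raise. Of these, 14 of 24 were higher and 6 lower in memory than in naive CD4 cells (all genes 24.5% and 20.9%), where Atf3 (6.09 ± 0.23) and Rhob (1.68 ± 0.15) were higher and Klf2 (−1.13 ± 0.05) was lower. In regulatory against naive CD4 cells 14 of 22 were higher and 4 lower (all genes 23.5% and 22.2%), such as the ERK phosphatase gene Dusp1 (1.23 ± 0.04) and Fos (1.08 ± 0.05). In memory against naive CD8 cells 2 of 21 were higher and 13 lower (all genes 10.5% and 9.33%), such as Ier2 (−0.47 ± 0.05), Junb (−0.42 ± 0.03) and Zfp36 (−0.52 ± 0.06), in the direction of Egr1. Between genotypes no gene of the 3 lists passed in any gate by edgeR. In memory CD4 cells 26 of 32 antigen-induced genes were below 0, with a median of −0.20, against −0.0035 for all genes tested. The smallest p there belonged to Dusp2, a phosphatase of MAP kinases (−0.49 ± 0.12, adjusted p = 0.476), and Cblb, a ubiquitin ligase that limits receptor signalling (−0.34 ± 0.12, adjusted p = 0.854). The receptor signalling genes had 13 of 24 and the serum response genes 11 of 21 below 0 in the same sums. The regulatory markers, of which Il2ra, Ctla4 and Tnfrsf18 are in the antigen-induced list, overlapped between genotypes in this gate. They summed to 719, 647 and 575 CPM in Cre-positive mice, against 784, 768 and 706 CPM in Cre-negative mice. Their part in the values of the antigen-induced list was not tested.

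The genes whose levels were most like the mean of the 6 Egr and Nr4a genes were ranked among 4869 genes at 20 CPM or more. Across the 6 gate means these were Nit1, Mien1, Tab2, Ndufa7, Akirin2, Sla, Uty and Mlf2 (Pearson r from 0.987 to 0.994 over 6 points). Taking the top of 4869 genes over 6 points can give high r by selection alone, so these values show no link between the genes. Across the 36 sums, after the gate means were taken out, they were Rbm17, Alkbh5, Bsdc1, Abhd2, Rasa1, Tmem189, Ier2 and Prkcsh (r from 0.534 to 0.675). Points of the same mouse share a library. Of the 4 other members, Nab2 had an r of 0.911 across gate means and 0.40 within gates, Irf4 0.685 and 0.01, Cd69 0.714 and 0.18, and Cd5 0.355 and −0.33.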

How the data were processed

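Pancreatic lymph node cells of 6 mice (3 Cre-positive, 3 Cre-negative) were sequenced as 1 library per mouse. The deposited matrices hold raw UMI counts of each gene in each barcode. The submitters' processing notes name Cell Ranger 6.1.2 and mm10, and no annotation release is given in the sources used here. The floxed gene and some of the gate markers are not reported here. The members and lists were chosen with earlier results of these data known.

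Barcodes with at least 500 UMIs, 300 genes and at most 10% mitochondrial UMIs were kept, and Scrublet (scanpy 1.11.5) doublet scores removed the top-scoring cells at a rate of 0.8% per 1000 barcodes (480 to 914 per library), since the tool's own threshold marked 0 to 364. T cell gates required at least 1 Cd3 UMI and none of Cd79a, Cd79b, Ms4a1 and Trdc, CD4 and regulatory gates no Cd8a or Cd8b1, CD8 gates no Cd4 or Foxp3, and B cells at least 2 UMIs over their markers and no Cd3. Counts were summed per mouse and gate, and CPM were taken from these sums without further scaling.

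Sums were tested with edgeR 4.0.16 (R 4.3.3): genes past filterByExpr, TMM factors, robust quasi-likelihood fits and Benjamini-Hochberg adjustment over all genes tested, at 0.05. Genotype fits used the 6 sums of a gate, and fits between gates and interactions used 12 sums with the mouse as a block. The SE of a log2 fold change was its size over the root of the F value. The fits were tested on simulated counts. Shares came from cells thinned to 2000 UMIs and were compared by two-sided exact permutation over mice. A limit for a count of 0 stands for 3 counts and covers counting error only. Genotype folds are printed for members that passed and otherwise for the 3 of smallest p, and for other lists for up to 4 genes of smallest p. Alternatives were DESeq2 1.42.0, library totals, no low-count filter, other UMI, mitochondrial, doublet and memory limits, each mouse left out and thinning to 1000 UMIs. Genotype fits were also run with the replicate number as a block, and fits between gates without the mouse block. Of the 31053 features, 30934 matched GENCODE M21 by identifier.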

Additional observations from a re-analysis of the deposited data

Results flagged for a closer look

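Among the other antigen-induced genes, Tnfrsf4, a costimulatory receptor of the tumour necrosis factor receptor family, showed a genotype difference that itself differed between memory and naive CD4 T cells. The interaction on the log2 scale was −0.95 ± 0.19 SE (edgeR's quasi-likelihood test with the mouse as a block, adjusted p = 0.0465). The Cre-positive over Cre-negative value was −0.31 in memory CD4 cells (adjusted p = 0.906) and 0.64 in naive CD4 cells (adjusted p = 0.398), and neither passed on its own. The cause was not tested.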

How the results depend on the processing

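All 10 members were recomputed between gates, and by genotype and interaction the 3 of smallest p in each fit. For fold changes between gates 721 values kept direction and side of the threshold, 15 newly passed, 13 no longer passed and 10 reversed; for genotype 259 kept both, 4 newly passed and 1 reversed; for interactions 135 kept both and 3 reversed. The number of members called by genotype in memory CD4 cells was 1 (Egr1) with no low-count filter (adjusted p = 0.0096) and with the replicate block (−0.55, adjusted p = 0.0365). In memory CD8 cells it was 1 (Nr4a2) without cells holding markers of other cell types (0.88, adjusted p = 0.0290) and with no low-count filter (0.65, adjusted p = 0.0489). The labels do not state whether mice of equal replicate number were paired. Correlations of same-numbered deviations ran from −0.398 to 0.428 over the 6 gates, and those of replicate 3 were above 0 in each gate. With 3 numbers per gate they cannot decide whether the mice were paired, so the fit with the replicate block stays an alternative. Between memory and naive CD8 cells 3 members were called with DESeq2. With no mouse block 3 were called as well, and there Egr1 and Nr4a1 were lost. With any 1 mouse left out, the members called numbered 0 to 0 in every genotype and interaction fit, 9 to 10 for memory over naive CD4, regulatory over naive CD4 and B over naive CD4, 4 to 5 for memory over naive CD8 and 6 to 6 for naive CD8 over naive CD4.

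Of the values that reversed, Nr4a2 by genotype in B cells was 0.38 with at most 5% mitochondrial UMIs. Egr3 in memory over naive CD8 was 0.11 with doublet calls kept and −0.21 to 0.17 with 1 mouse left out. In naive CD8 over naive CD4, Egr3 was −0.0014 with DESeq2, −0.0446 with library totals and −0.000558 with no mouse block. It was −0.0471 to 0.17 with 1 mouse left out. Cd69 was −0.0632 with library totals and −0.0429 to 0.0748 with 1 mouse left out. The CD4 interaction of Cd69 was 0.12 with at most 5% mitochondrial UMIs and −0.24 to 0.0310 with 1 mouse left out, and the CD8 interaction of Nr4a2 −0.13 to 0.85. The cause was not tested.

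Differences in shares, in percentage points, Cre-positive minus Cre-negative, moved to −0.239 in naive CD4 cells with thinning to 1000 UMIs, where they were −0.301 in memory CD4 and 0.045 in regulatory cells. With 2 or more genes they were −4.69 in memory CD4, 0.685 in naive CD8, −0.0893 in memory CD8, −1.85 in regulatory and −0.553 in B cells. With 1 mouse left out they ran from 0.0794 to 0.364 in naive CD4, −2.92 to −1.07 in memory CD4, −0.331 to 0.278 in naive CD8, −1.12 to −0.499 in memory CD8, 0.338 to 2.94 in regulatory and −0.154 to 0.0191 in B cells. Egr2 stood at under 10 CPM in every B, CD8 and naive CD4 sum, which limits what those fits can show.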
